A study of Arabidopsis thaliana with 8 samples.

Results

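The Aux/IAA and ARF gene families encode the transcriptional core of the auxin response. All 44 genes examined, 29 Aux/IAA genes (IAA1 to IAA20 and IAA26 to IAA34) and 15 ARF genes (ARF1 to ARF11 and ARF16 to ARF19), were found by locus identifier among the 28775 genes of the deposited table. The study sequenced messenger RNA of Arabidopsis thaliana floral buds at mixed stages, to find genes downstream of RABBIT EARS (RBE), a zinc-finger transcription factor needed for petal development. Every plant was of strain L er with the 35S:GR-RBE transgene, which expresses RBE as a fusion with the glucocorticoid receptor (GR) under the near-constitutive 35S promoter, and so not only in its native domain. The treated group (DEX) received 10 µM dexamethasone in 0.1% ethanol and 0.015% Silwet for 4 h, and the control group (mock) received the same carrier alone. Each group comprised 4 libraries, which are 2 technical replicates of each of 2 biological replicates, and the deposited values pool the libraries of a group. Both groups carry the transgene, and no group used here was treated with dexamethasone without it, so effects of the fusion and of dexamethasone itself cannot be told apart. In whole buds, fewer cells of a type and less transcript per cell cannot be told apart either.

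ARF proteins bind auxin response elements in promoters, and Aux/IAA proteins bind to them and recruit TOPLESS corepressors. Auxin joins an Aux/IAA protein to a TIR1/AFB receptor, an F-box protein of an SCF ubiquitin ligase, and the Aux/IAA protein is then degraded. Many Aux/IAA genes are themselves induced by auxin within minutes, which makes the pathway self-limiting. In flowers, ARF proteins are known for the initiation of flower primordia, gynoecium patterning and the growth of stamens and petals.

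The receptor contacts Aux/IAA proteins at a short degron with the core glycine-tryptophan-proline-proline. The core was found in the translated coding sequences of 23 of 29 Aux/IAA genes, called canonical below, and was absent from the other 6 (IAA20, IAA30, IAA31, IAA32, IAA33 and IAA34), called non-canonical. The leucine repeat (leucine at every other position, 3 times) that contacts TOPLESS was found in 28 of the 29, with IAA33 as the exception. The degron-coding bases of IAA18, IAA16, IAA8 and IAA6, canonical members that the results below turn on, are shown 5′ to 3′ on the coding strand with the codons of the core in capitals. Sequences here and below were read from the RefSeq genome of build TAIR10.1.
IAA18 (chr1:19306228-19306263, plus strand): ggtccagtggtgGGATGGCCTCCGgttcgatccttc
IAA16 (chr3:1289727-1289762, minus strand): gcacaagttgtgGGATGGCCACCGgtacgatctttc
IAA8 (chr2:9637722-9637757, plus strand): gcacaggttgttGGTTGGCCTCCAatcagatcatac
IAA6 (chr1:19673320-19673355, minus strand): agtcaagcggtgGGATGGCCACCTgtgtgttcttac

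Small RNAs cut the transcripts of 8 of the 15 ARF genes. MiR160 targets ARF10, ARF16 and ARF17, miR167 targets ARF6 and ARF8, and small RNAs made from the TAS3 transcript target ARF2, ARF3 and ARF4. The sites are shown because the ARF results below are read beside the small RNA that targets each gene. In the microRNAs the capitals mark the seed, bases 2 to 8. The TAS3A line is the 21-base stretch of the transcript with the fewest mismatches to ARF2, ARF3 and ARF4 together and is not an annotated small RNA. In each site, all within coding sequence, the capitals mark bases in Watson-Crick pairs with the small RNA, and lower case marks mismatches and G-U pairs.
ath-miR160a-5p: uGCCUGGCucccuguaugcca
ath-miR167a-5p: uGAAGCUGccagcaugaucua
TAS3A stretch (chr3:5862205-5862225, plus strand): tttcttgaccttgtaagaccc
ARF10 site (chr2:12115741-12115761, plus strand): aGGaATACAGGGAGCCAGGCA
ARF16 site (chr4:14704141-14704161, minus strand): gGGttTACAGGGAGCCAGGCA
ARF17 site (chr1:29274189-29274209, plus strand): TGGCATgCAGGGAGCCAGGCA
ARF6 site (chr1:10686478-10686498, minus strand): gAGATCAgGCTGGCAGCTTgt
ARF8 site (chr5:14633841-14633861, plus strand): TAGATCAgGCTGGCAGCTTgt
ARF2 site (chr5:24913262-24913282, plus strand): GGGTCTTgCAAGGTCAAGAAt
ARF3 site (chr2:14325941-14325961, minus strand): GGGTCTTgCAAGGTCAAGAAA
ARF4 site (chr5:24309507-24309527, minus strand): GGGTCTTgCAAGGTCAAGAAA
Among the 44 genes the 3 best sites of miR160a-5p were those of ARF17, with 0 mismatches and 1 G-U pair, ARF10, with 2 mismatches, and ARF16, with 2 mismatches and 1 G-U pair. The 2 best sites of miR167a-5p were in ARF8 and ARF6, with 3 and 4 mismatches.

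Depth, recovered from the deposited log-likelihood score, came to 102142647 gene-assigned reads for DEX and 119056377 for mock. Each log2 ratio of DEX over mock is the authors' deposited estimate, and ± is its standard error from read counting alone. With 1 value per pool, the spread between biological replicates was not measured and no difference has a replicate check. Calls of higher or lower in DEX required reads in both pools and a posterior probability of the opposite direction under 0.05 in the authors' deposited table. By this rule 57.2% of the 24945 genes with reads in both pools were called, with 36.4% higher and 20.8% lower. The median ratio of these genes was 0.05. Over genes with 3000 to 10000 reads, ratios spread with an SD of 0.226, and their counting error had a median of 0.0386. A call therefore says that the pools differ beyond counting error, and a ratio near 0.1 is common among genes of this depth. The floral identity genes AP1, AP3, PI, AG and SEP3 were abundant in both pools, at 41.5 to 166 RPKM (reads scaled to exon length and pool depth). Of the marker lists, 3 of 4 late pollen genes and 4 of 5 tapetum genes were called higher, all 4 photosynthesis genes and all 5 floral identity genes lower, and of 6 carpel and ovule genes 2 were higher and 3 lower. Their summed levels in DEX and mock were 774 and 625 RPKM for pollen, 213 and 190 for tapetum, 4140 and 4660 for photosynthesis, 431 and 486 for floral identity, and 87.8 and 89.6 for carpel and ovule. Single genes made up much of the pollen, tapetum and photosynthesis sums. These were VGD1 at 398 and 307 RPKM, ACOS5 at 152 and 135, and RBCS1A at 3030 and 3320. None of these lists is at 0 in either pool, and their part in the results below was not tested. RBE itself, whose native and transgene reads are counted together, stood at -0.19 ± 0.013, lower in the treated pool.

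Aux/IAA genes were called lower in DEX more often than higher, and ARF genes were evenly split. Of 29 Aux/IAA genes, all with reads in both pools, 12 were called lower, 4 higher and 13 not called. That is 41.4% lower and 13.8% higher, against 20.8% and 36.4% of all genes. Of 15 ARF genes, 6 were called lower, 6 higher and 3 not called, or 40.0% in each direction. The share of lower calls grows with depth among all genes, to 30.3% of those with 10000 to 30000 reads and 41.6% of those with 30000 to 100000, so the comparison with all genes is not one at equal depth. The median Aux/IAA gene had 2207 reads and the median ARF gene 11886, and of all genes with 1000 to 3000 reads 19.8% were called lower. Of the 12 Aux/IAA genes called lower, only IAA11 and IAA19 lay in that range, and IAA6 and IAA32 had fewer reads. IAA2, IAA4, IAA13 and IAA18 lay at 3000 to 10000 reads, where 23.1% of all genes were called lower. IAA16, IAA26 and IAA27 lay in the range with 30.3%, and IAA9 in that with 41.6%. Among genes with 200 reads or more, 66.2% were called, 41.8% higher and 24.5% lower, beside 4 higher and 11 lower of 23 Aux/IAA genes of that depth and the same 15 ARF genes. With a posterior limit of 0.01, 46.1% of all genes were called, 29.1% higher and 17.1% lower, and only ARF10 among the 44 genes lost its call. At 1.5-fold or more, 7.36% of all genes were called, 4.45% higher and 2.91% lower, and of the 44 genes only IAA6 and IAA32, both lower. Placing the median of all genes at 0 lowers every ratio by 0.05, and with this setting the Aux/IAA counts became 13 lower and 3 higher and the ARF counts 9 and 5. Of all genes, 54.9% were then called, 29.5% lower and 25.4% higher.

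The ratios of the 2 families overlapped. The median log2 ratio was -0.07 for Aux/IAA genes and -0.04 for ARF genes, a difference of 0.03. Without the 11 members whose exons overlap another listed gene the medians were -0.01 and -0.06, and the difference turned to -0.05. With the median of all genes set to 0 the medians were -0.12 and -0.09, and after removal of a trend in GC content and length -0.13 and -0.09. That trend was fitted with a constant term over annotated genes with 200 reads or more, so its removal also sets their mean to 0. No test across samples is possible between the families. Aux/IAA ratios ran from -1.0 to 1.1 and ARF ratios from -0.41 to 0.29. The 23 Aux/IAA genes with 200 reads or more ran from -0.88 to 0.29, and the ends of the wider range belong to IAA6 and IAA34, with 127 and 12 reads. Of the 38 members with 200 reads or more, 37 differed by less than 1.5-fold and IAA32 by more, a share near the 95.1% of all genes of that depth. Added over the whole family, 127572 DEX reads and 151573 mock reads fell in Aux/IAA genes, which is a log2 ratio of -0.03 ± 0.0055. ARF reads numbered 185861 and 220253, a ratio of -0.02 ± 0.0045. The abundant members of each family lay on both sides of 0.

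**Figure D1:**
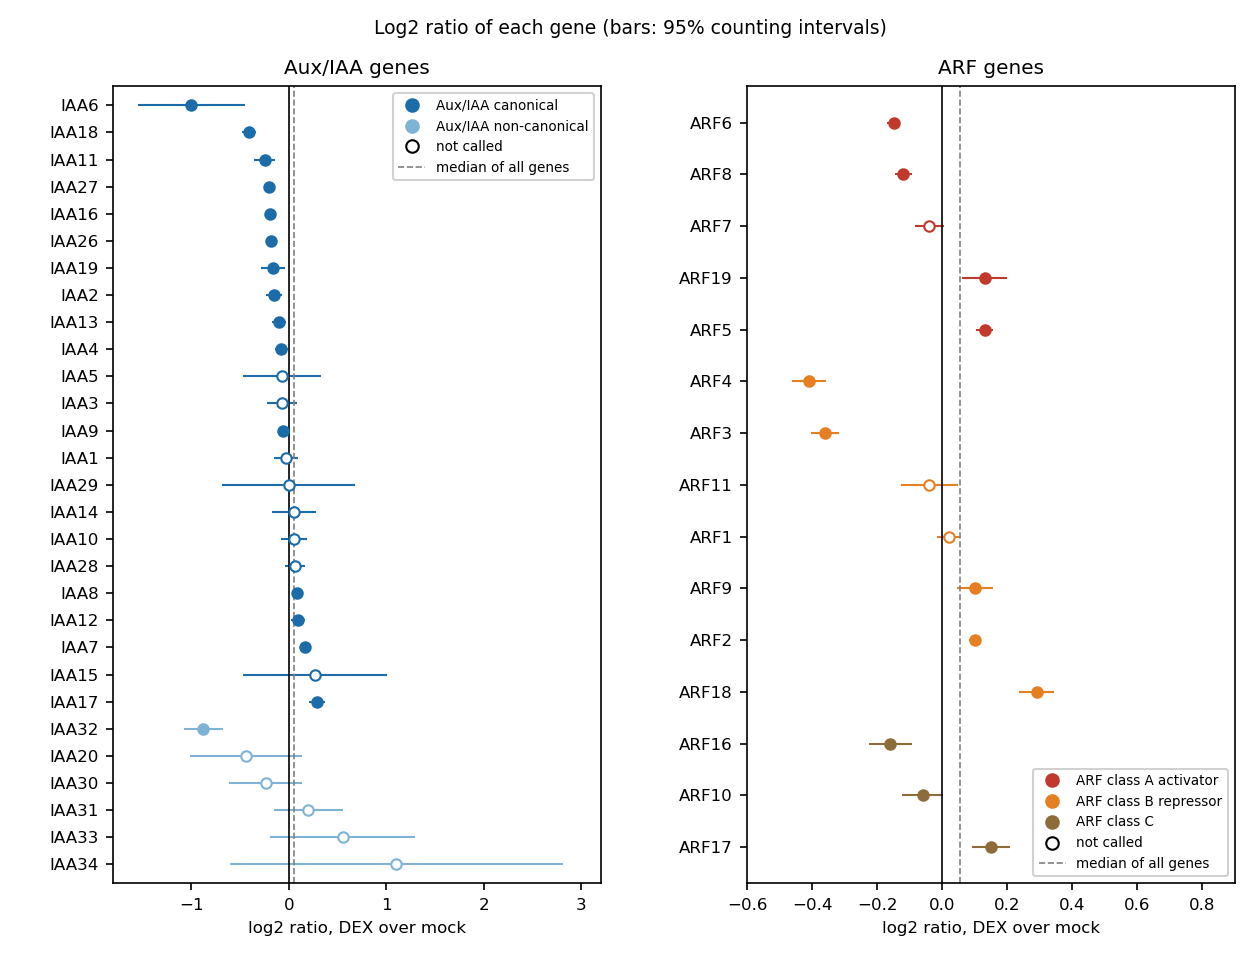
Log2 ratio of DEX over mock for each Aux/IAA gene (left) and ARF gene (right), with 95% counting intervals as bars; the x axes differ in range. Filled points were called and open points were not, the dashed line is the median of all genes at 0.05, and IAA6 and IAA32 stand apart at -1.0 and -0.88.

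**Figure D2:**
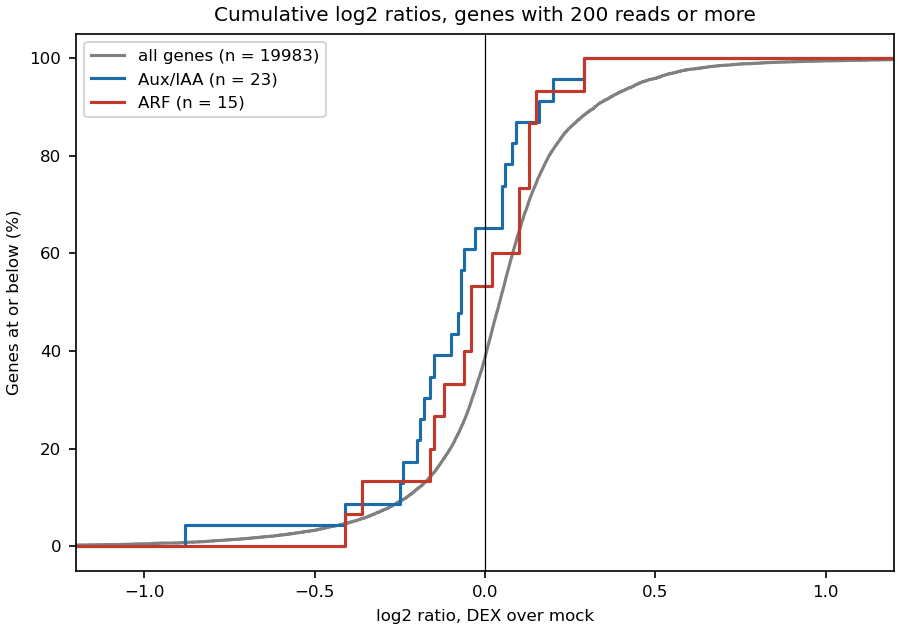
Cumulative percentage of genes (y axis) at or below each log2 ratio (x axis) for all 19983 genes with 200 reads or more, the 23 Aux/IAA genes and the 15 ARF genes of that depth. At a ratio of 0 both family curves are above the curve of all genes, and both end at 0.29.

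Canonical Aux/IAA genes made up 11 of the 12 lower calls, and they are also the larger class, with 23 genes against 6 non-canonical ones. Of the canonical genes 47.8% were called lower, of the non-canonical genes 16.7%, and of all genes 20.8%. Median depth was 4846 reads for canonical and 168 for non-canonical genes, and only 3 of the 6 had 200 reads or more. Calls grow with depth, so the classes were not compared at equal depth. IAA18 (AT1G51950, chromosome 1, 19305081 to 19307518), whose stabilised forms disturb embryonic patterning, had the canonical ratio farthest beyond its counting error. Its 2352 DEX reads and 3648 mock reads, or 12.9 and 17.2 RPKM, gave a log2 ratio of -0.41 ± 0.038. Its level in mock was thus the higher, and 4.62% of genes with 200 reads or more had a lower ratio. IAA16 (AT3G04730, chromosome 3, 1288155 to 1290891), a repressor whose stabilised form restricts growth, had 8120 and 10823 reads, or 39.3 and 44.9 RPKM, a ratio of -0.19 ± 0.021. IAA26 and IAA27, which encode proteins that bind phytochrome, were close to it at -0.18 ± 0.024 and -0.20 ± 0.027. IAA11 stood at -0.25 ± 0.057. For IAA18, IAA16 and IAA8 the authors' deposited table gives a posterior of 0 for the opposite direction.

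IAA6 (SHY1, AT1G52830, chromosome 1, 19672476 to 19673652), first known from suppressors of a phytochrome mutant, had the lowest ratio of the 44 genes on few reads. It had 38 reads in DEX and 89 in mock, or 0.436 and 0.871 RPKM, a ratio of -1.0 ± 0.28. The posterior that DEX was higher was 0 in the authors' deposited table. Both pools thus had few reads, and the larger number was in mock. The remaining canonical genes called lower, IAA2, IAA4, IAA9, IAA13 and IAA19, had ratios between -0.16 and -0.06. IAA19 (MSG2), which acts in tropic bending and stamen filament growth, was at -0.16 ± 0.062. IAA9, whose tomato counterpart acts in leaf shape and fruit set, was nearest 0 of these at -0.06 ± 0.011, on 75240 reads over both pools.

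Of the canonical genes, 4 were called higher, and 2 of these are among the best known dominant auxin-resistant loci. IAA17 (AXR3) was the highest at 0.29 ± 0.041. It had 2554 DEX reads and 2432 mock reads, or 19.0 and 15.5 RPKM. IAA7 (AXR2) had 8268 and 8609 reads, or 42.4 and 37.9 RPKM, a ratio of 0.16 ± 0.022. IAA8 (AT2G22670, chromosome 2, 9636346 to 9638761), reported to affect floral organ growth, had 42334 and 46706 reads, or 201 and 191 RPKM, a ratio of 0.08 ± 0.0097. IAA12 (BODENLOS), the partner of ARF5 in the embryo, was at 0.09 ± 0.036. Its call was lost, at 0.04, with the median of all genes set to 0, and at 0.05 after the GC and length correction. The other 8 canonical genes were not called. Of these IAA1, IAA3, IAA10, IAA14 and IAA28 had 633 to 2967 reads and ratios from -0.07 to 0.06. IAA5, with 207 reads, was at -0.07 ± 0.20. IAA15 and IAA29 had 59 and 69 reads, and with counting errors of 0.38 and 0.35 a difference much under 1.5-fold was not detectable.

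Of the 6 non-canonical Aux/IAA genes, whose products lack the degron core, IAA32 was called lower and 5 were not called. IAA32 (AT2G01200, chromosome 2, 117969 to 120095), which with IAA34 acts in auxin signalling at the apical hook, had 293 reads in DEX and 631 in mock, or 1.54 and 2.84 RPKM. Its log2 ratio was -0.88 ± 0.10, or 1.85-fold lower, and 0.796% of genes with 200 reads or more had a lower one. Its exons overlap those of AT2G01210 on the other strand over 826 bases, and that gene was also lower, with 1544 and 2519 reads and a ratio of -0.49 ± 0.047. IAA32 has 1868 exonic bases. Where counting did not use strand, reads from the shared 826 bases cannot be told apart between the 2 genes. IAA20, which alters root growth when overexpressed, had 39 reads in DEX and 62 in mock, or 0.387 and 0.527 RPKM, a ratio of -0.44 ± 0.30 and a posterior of 0.066 in the authors' deposited table. It was called lower with the median of all genes set to 0. IAA33, which acts in the root tip, had 33 and 26 reads, or 0.424 and 0.289 RPKM, a ratio of 0.55 ± 0.38 and a posterior of 0.063 for mock being higher in the same deposited table. IAA30, IAA31 and IAA34 were at -0.24 ± 0.19, 0.20 ± 0.18 and 1.1 ± 0.87, the last on 12 reads. Added together, the 6 genes had 598 reads in DEX and 987 in mock, of which 293 and 631 were from IAA32. After the GC and length correction IAA20 and IAA30 were called lower as well.

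The abundant members were the same in both pools, and 22 of the 44 genes changed rank within their family. Per length, IAA8 and IAA9 led the Aux/IAA family in mock at 191 and 162 RPKM, and again in DEX at 201 and 155. They held 30.8% and 27.3% of the Aux/IAA reads in mock. The median Aux/IAA gene had 10.3 RPKM in mock and 9.31 in DEX. IAA34 was the lowest at 0.0349 and 0.0749. ARF levels in mock ran from 6.59 RPKM for ARF19 to 110 for ARF2, with a median of 17.7. ARF2 and ARF6 held 23.0% and 22.5% of the ARF reads in mock. ARF4 moved from rank 7 in mock to 11 in DEX among the 15, and IAA18 from rank 9 to 12 among the 29. RPKM here divides by all annotated exon bases of a gene, so genes with rare long isoforms are set somewhat low.

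**Figure D3:**
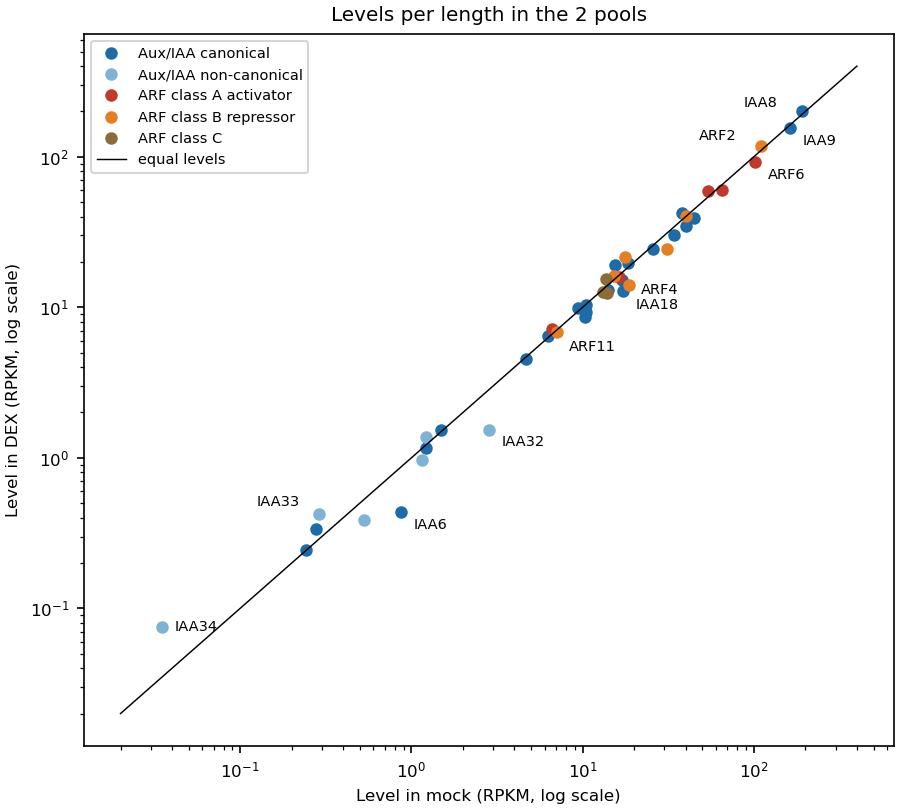
Level of each gene in mock (x axis) and DEX (y axis), in RPKM on log scales, coloured by role, with the line of equal levels. Levels span 0.0349 to 191 RPKM in mock, and IAA6, IAA32, IAA18 and ARF4 lie below the line.

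Class A ARF proteins activate transcription, and their 5 genes went both ways. The 2 miR167 targets were called lower, ARF5 and ARF19 higher, and ARF7 was not called. ARF6 (AT1G30330, chromosome 1, 10685822 to 10690988), which with ARF8 drives flower maturation and stamen filament growth, had 38360 reads in DEX and 49450 in mock, or 92.4 and 102 RPKM. Its log2 ratio was -0.15 ± 0.0098. ARF8 (AT5G37020, chromosome 5, 14629453 to 14634454) had 21892 and 27707 reads, or 59.7 and 64.8 RPKM, and a ratio of -0.12 ± 0.013. The 2 genes had nearly the same ratio, with a difference of -0.03 and a counting interval of -0.06 to 0.01. ARF5 (MONOPTEROS, AT1G19850, chromosome 1, 6886669 to 6891404), needed to start flower primordia, had 21944 and 23317 reads, or 59.4 and 54.2 RPKM, a ratio of 0.13 ± 0.014. ARF19 stood at 0.13 ± 0.036, and its call was lost, at 0.05, after the GC and length correction. ARF7, its partner in lateral root formation, was at -0.04 ± 0.023, with a posterior of 0.0503 that DEX was higher, just past the limit. With the median of all genes set to 0, ARF7 was called lower at -0.09.

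The lowest ARF ratios were those of ARF3 and ARF4, class B repressors that TAS3 targets. ARF3 (ETTIN, AT2G33860, chromosome 2, 14325206 to 14328978), which patterns the gynoecium, had 7123 reads in DEX and 10657 in mock, or 24.3 and 31.1 RPKM, a log2 ratio of -0.36 ± 0.022. ARF4 (AT5G60450, chromosome 5, 24308255 to 24312784), which with ARF3 specifies the lower side of organs, had 4656 and 7230 reads, or 14.0 and 18.6 RPKM, a ratio of -0.41 ± 0.027. Both were higher in mock, and 5.71% and 4.58% of genes with 200 reads or more had lower ratios. ARF2, the third TAS3 target and a repressor of organ size, ran the other way at 0.10 ± 0.0093, with 46557 and 50729 reads. The TAS3A transcript had 1235 reads in DEX and 1022 in mock, or 12.8 and 9.06 RPKM, and was called higher at 0.50 ± 0.061. The TAS3A transcript was thus higher in the pool in which ARF3 and ARF4 were lower, and so was ARF2, whose site has 1 mismatch to the stretch shown above. Whether TAS3A bears on these ARF values was not tested.

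Of the other class B genes, ARF18 and ARF9 were called higher, and ARF1 and ARF11 were not called. ARF18 (AT3G61830, chromosome 3, 22887889 to 22891455), a relative of ARF1 and ARF2, had 5722 reads in DEX and 5442 in mock, or 21.7 and 17.7 RPKM. Its log2 ratio of 0.29 ± 0.027 was the highest of the 15 ARF genes. ARF9, a repressor active in the embryo's suspensor, was at 0.10 ± 0.028, and its call was lost at 0.05 with the median of all genes set to 0. ARF1, which acts with ARF2 in ageing and organ shedding, was not called at 0.02 ± 0.019. That value turned to -0.04, called lower, with the median set to 0. ARF11 was not called at -0.04 ± 0.045, and was called lower at -0.10 with that setting.

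Of the 7 ARF genes that none of these small RNAs target, 0 were called lower and 4 higher (20.8% and 36.4% of all genes), and their median was 0.10. With the median of all genes set to 0 these counts became 3 and 3, and after removal of a trend in GC content and length 2 and 3. Of all genes, 29.5% were lower and 25.4% higher with the median set to 0. These shares were not measured after removal of the trend. Class C genes, the miR160 targets, went both ways. ARF16 (AT4G30080, chromosome 4, 14703065 to 14706354), which with ARF10 acts in the root cap and seed, had 3185 reads in DEX and 4160 in mock, or 12.4 and 13.9 RPKM, a log2 ratio of -0.16 ± 0.034. ARF10 (AT2G28350, chromosome 2, 12113889 to 12116957) had 3759 and 4573 reads, or 12.7 and 13.2 RPKM, a ratio of -0.06 ± 0.032. Its posterior of 0.029 passed the limit of 0.05 and not that of 0.01. ARF17 (AT1G77850, chromosome 1, 29272074 to 29275507), needed for the pollen wall, had 4633 and 4854 reads, or 15.3 and 13.7 RPKM, a ratio of 0.15 ± 0.030. ARF17 was the only class C gene called higher, and 41.8% of all genes with 200 reads or more were called higher too. In the same pool 4 of 5 tapetum and 3 of 4 late pollen markers were higher, and PPME1 was lower at -0.28. With the median of all genes set to 0, 3 tapetum markers were higher and 1 lower. Whether tapetum or pollen content bears on the ARF17 value was not tested. The microRNA precursors had at most 143 reads each in these poly-A libraries. MIR167A and MIR167B, annotated at 138 and 109 bases, had 5.3 and 5.27 RPKM in DEX and 4.15 and 4.65 in mock. MIR160A, MIR160B and MIR160C had 10, 4 and 6 reads over both pools, and none was called. MIR167A, MIR167B and MIR167D had 143, 119 and 116 reads, with ratios of 0.35 ± 0.24, 0.18 ± 0.27 and -0.39 ± 0.27, and none was called. MIR167C was listed at 0. Of the receptor-targeting precursors, MIR393A was listed at 0 and MIR393B had 16 reads. MIR390B, which starts TAS3 processing, was called higher on 13 reads, and MIR390A had 2.

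Closest relatives within a family often differed beyond counting error. By identity of their translated sequences, 14 pairs were each other's closest relative, and in 9 of these the 2 log2 ratios differed beyond a 95% counting interval. In 4 pairs both genes were called lower, in 0 both higher, and in 2 the calls were opposite. Over all genes with 3000 to 10000 reads the SD of ratios was 0.226 and the median counting error 0.0386. Differences beyond counting error are therefore common among genes of that depth. No share was measured for other gene pairs, so whether relatives differ more or less often than others was not tested. The opposite pairs were IAA8 and IAA9, at 58.3% identity, with a difference of 0.14 ± 0.014, and IAA12 and IAA13, at 74.0%, with a difference of 0.19 ± 0.051. With the median of all genes set to 0, 3 pairs had opposite calls, IAA8 with IAA9, ARF7 with ARF19 and ARF11 with ARF18. After the GC and length correction 7 pairs were both lower and 2 opposite, IAA8 with IAA9 and ARF11 with ARF18. That correction also centres the ratios of other genes, and the share of all genes called lower after it was not measured. IAA18 and IAA26 were both lower and still differed, by -0.23 ± 0.045. ARF11 minus ARF18, a pair at 73.1% identity, was -0.34 ± 0.053. ARF7 and ARF19 differed by -0.17 ± 0.042. IAA20 and IAA30, the most alike at 83.4%, differed by -0.20 ± 0.35, which these reads cannot resolve.

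Of the Aux/IAA genes, 6 lie in 3 divergent neighbour pairs with no other listed gene between them. IAA2 and IAA7 on chromosome 3 are 12510 bases apart, with ratios of -0.15 and 0.16 and opposite calls. IAA3 and IAA17 on chromosome 1 are 6388 bases apart, at -0.07 and 0.29. IAA14 and IAA1 on chromosome 4 are 10732 bases apart, at 0.05 and -0.03, and did not differ beyond counting error. IAA3, IAA14 and IAA1 were not called. The 2 ratios had opposite signs in 3 pairs, and in 2 with the median of all genes set to 0 or after the GC and length correction, where IAA14 was at -0.01 and -0.03.

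**Figure D4:**
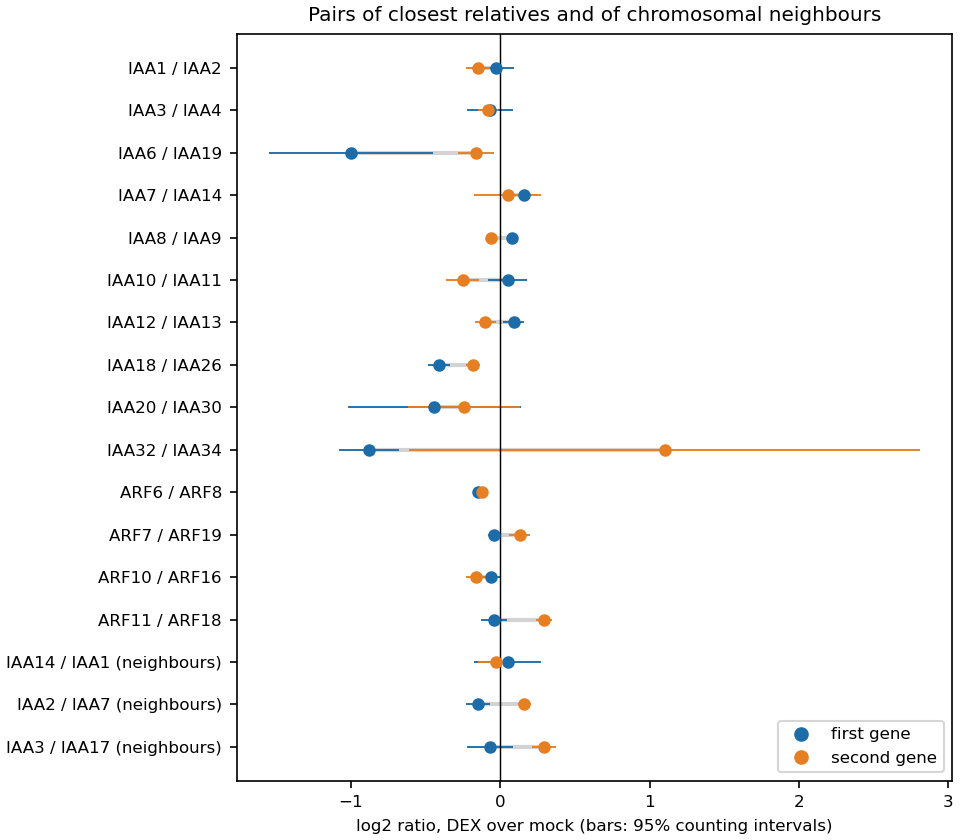
Log2 ratios of the 14 pairs of mutually closest relatives and the 3 neighbour pairs, first gene in blue and second in orange, with 95% counting intervals as bars. IAA18 and IAA26 lie on 1 side of 0 and IAA12 and IAA13 on opposite sides, and IAA34 has the widest bar.

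The auxin response element, the motif that ARF proteins bind, was found in more Aux/IAA than ARF promoters. Its form TGTCTC was searched on both strands from 250 bases before to 50 bases after each annotated gene start. It was present in 12 of 29 Aux/IAA promoters, or 41.4%, in 1 of 15 ARF promoters, or 6.67%, and in 14.2% of 26709 protein-coding genes. A higher-affinity form, TGTCGG, searched the same way and never at the same position, was present in 20.7%, 13.3% and 5.12%. Of the 12 Aux/IAA genes with TGTCTC, 3 were called lower and 1 higher, with a median log2 ratio of -0.05. Of the 17 without it, 9 were called lower and 3 higher, with a median of -0.07. The genes with the motif had fewer reads, at a median of 244 against 6000. Promoters of the Aux/IAA genes with the lowest ratios, of the relative of IAA6 and of the ARF gene with the motif follow, on the gene's strand, with each TGTCTC, or its reverse complement, in capitals.
IAA6 (chr1:19673603-19673902, minus strand): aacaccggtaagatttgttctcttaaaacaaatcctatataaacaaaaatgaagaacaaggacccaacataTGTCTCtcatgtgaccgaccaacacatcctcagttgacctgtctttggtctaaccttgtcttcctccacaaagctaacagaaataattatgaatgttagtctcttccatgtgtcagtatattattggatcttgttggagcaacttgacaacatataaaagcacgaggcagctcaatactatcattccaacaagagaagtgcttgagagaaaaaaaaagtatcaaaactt
IAA19 (chr3:5263751-5264050, plus strand): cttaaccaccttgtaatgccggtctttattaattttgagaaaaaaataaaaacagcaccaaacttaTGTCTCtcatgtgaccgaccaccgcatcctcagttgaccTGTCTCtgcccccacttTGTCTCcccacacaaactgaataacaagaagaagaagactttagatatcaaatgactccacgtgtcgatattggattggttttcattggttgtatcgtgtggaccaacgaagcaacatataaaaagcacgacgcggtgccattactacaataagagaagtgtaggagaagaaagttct
IAA32 (chr2:117719-118018, plus strand): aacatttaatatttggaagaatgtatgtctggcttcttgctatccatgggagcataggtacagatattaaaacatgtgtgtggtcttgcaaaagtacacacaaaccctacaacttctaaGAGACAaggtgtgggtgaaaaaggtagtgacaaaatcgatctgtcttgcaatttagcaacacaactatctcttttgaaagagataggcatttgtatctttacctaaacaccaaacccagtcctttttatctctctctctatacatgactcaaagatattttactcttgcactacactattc
ARF3 (chr2:14328929-14329228, minus strand): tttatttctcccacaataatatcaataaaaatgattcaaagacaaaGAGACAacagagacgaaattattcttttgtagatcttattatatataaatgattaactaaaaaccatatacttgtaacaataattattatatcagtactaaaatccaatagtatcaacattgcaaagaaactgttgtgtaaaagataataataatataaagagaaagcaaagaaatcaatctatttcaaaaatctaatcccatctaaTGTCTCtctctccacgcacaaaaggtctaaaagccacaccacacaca
IAA6 and IAA19 share an identical run of 23 bases that holds the motif, the longest among the 14 pairs of relatives. It begins 181 and 186 bases before their gene starts.
IAA6 and IAA19: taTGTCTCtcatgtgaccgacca
The next longest run, 18 bases, is shared by IAA20 and IAA30 and also holds the motif.
IAA20 and IAA30: cTGTCTCatcattccacc
A match describes these letters and not a bound site. IAA6 and IAA19 were both called lower, and their ratios differed by -0.84 ± 0.29.

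Genes of the other steps of the pathway were called in different directions. Of all genes, 36.4% were called higher and 20.8% lower. With the median of all genes set to 0 these shares were 25.4% and 29.5%. Calls also grow with depth, and of all genes with 30000 to 100000 reads 84.8% were called, 41.6% lower. Of the 6 TIR1/AFB receptor genes, 3 were called lower and 1 higher, with a median log2 ratio of -0.04. With the median of all genes set to 0, 4 were lower and 1 higher, with a median of -0.09. AFB1 was at -0.60 ± 0.023 (6178 DEX and 10915 mock reads), and TIR1 at -0.29 ± 0.017 (12780 and 18208). AFB2 was at 0.18 ± 0.027, so calls in this list went both ways. All 5 TOPLESS corepressor genes, with 26585 to 43466 reads, were called higher, with a median of 0.22. TPR3 was at 0.44 ± 0.018, TPR1 at 0.29 ± 0.016 and TPR2 at 0.22 ± 0.015. TPL and TPR4, at 0.08 ± 0.014 and 0.05 ± 0.015, were near the median of all genes, 0.05. With the median of all genes set to 0, 4 of the 5 were called higher. Of 9 genes of the SCF ligase and its regulators, 4 were higher and 2 lower, with ratios from -0.07 to 0.12, and 2 higher and 5 lower with that setting. The largest relative to error were the cullin CUL1 at 0.12 ± 0.012, the conjugating enzyme gene RCE1 at 0.10 ± 0.021 and the SKP1 homologue ASK2 at -0.07 ± 0.019. Of 16 early auxin output genes, 7 were called lower and 0 higher, with a median of -0.46, and 8 and 0 with the setting. The conjugating enzyme genes GH3.3, GH3.5 and GH3.6 stood at -0.58 ± 0.025, -0.39 ± 0.020 and -0.33 ± 0.018. Of the other lower calls in that list, GH3.2 had 887 reads, and GH3.1, SAUR21 and SAUR24 rest on 184, 156 and 32. The 8 ARF genes of the chromosome 1 cluster, which are known from seeds, had at most 5 reads each.

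**Figure D5:**
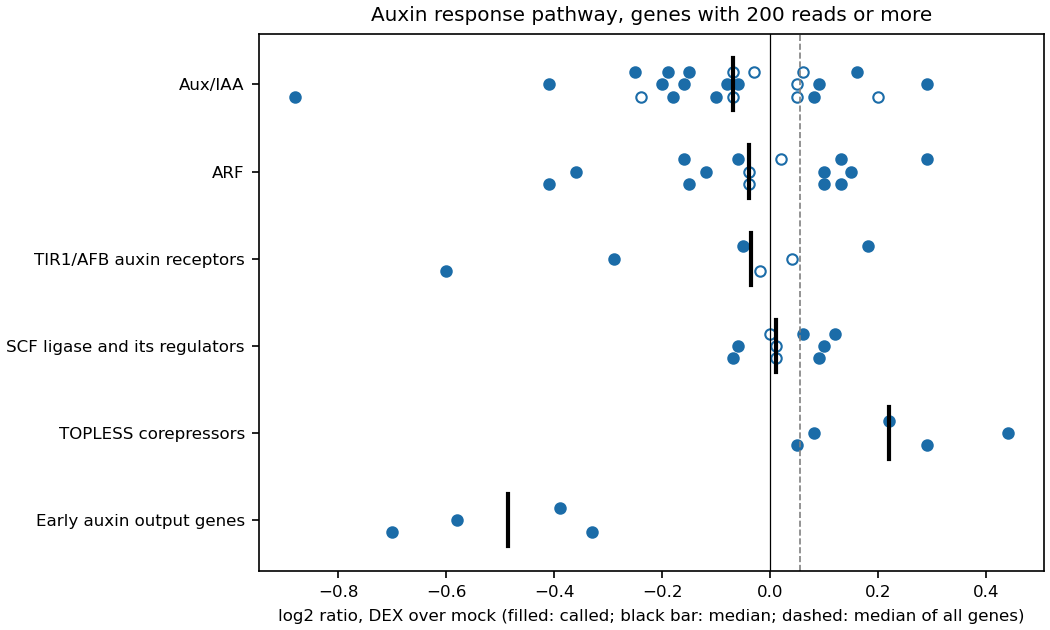
Log2 ratios of genes with 200 reads or more in 6 groups of the auxin response pathway; filled points were called, black bars are group medians and the dashed line is the median of all genes. All 5 TOPLESS genes lie above 0 and the output genes of this depth, all GH3 genes, lie between -0.70 and -0.33.

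Exons of 11 of the 44 genes overlap another listed gene, 9 of them on the other strand and 4 over more than 100 bases. Besides IAA32, these 4 are IAA13 (784 bases, with a gene that had 0 reads), IAA3 (536 bases, with AT1G04230 at 0.08 ± 0.048) and IAA34 (125 bases on the same strand). ARF7 shares 70 bases with AT5G20720, which had 82534 reads and a ratio of -0.12 ± 0.010. None of the 44 shares a stretch of at least 100 bases at 95% identity or more with another gene, relatives included.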

How the data were processed

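Floral bud messenger RNA was sequenced in 8 libraries, and the submitters' processing notes name TopHat 1.2.0, HTSeq 0.4.5p6 and TAIR10. The authors deposited 1 table in LOX output format. Per the file headers it gives, for each gene, the posterior probability of each direction, the level in each treatment as a ratio to the lower one, interval half-widths, and a log-likelihood score. Libraries are pooled, and the strand setting and removal of PCR copies are not given in the sources used here.

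The log2 ratio of the 2 deposited levels was used unchanged. Reads per pool were recovered by treating the deposited score as a Poisson log-likelihood, summed over pools, of a gene's reads N in a total of T: N ln(N/T) minus N. No source states this formula, and all read numbers, RPKM values and counting errors rest on it. Of 8294 genes with up to 1000 reads, 99.98% came out whole within 0.1. Regressed on the ratio over its counting error across 8121 genes, the posterior's normal score had a slope of 1.00, which leaves no room in it for spread between replicates. Counting error alone would call about 10% of unchanged genes. Intervals are 95% counting intervals.

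The design foresaw a quasi-likelihood test had the file held counts per library; it had none, so the authors' posterior was used. Members and lists were chosen with earlier results of these data known. Described in full were called members of 1.5-fold or more with 200 reads, the 3 genes of each role with the largest ratio over its error, and up to 3 genes of each other list; the remaining members are given more briefly. Other genes are named where a count or pair rests on them, after their values were seen. Annotation was RefSeq TAIR10.1, to which 28009 of 28775 identifiers matched; its nuclear loci were looked up by identifier. Each coding sequence is that of the gene's lowest-numbered RefSeq protein. Identity counts identical residues over the longer protein. The blastn 2.17.0 program searched for near-identical copies. Python 3.11.15, NumPy 2.4.6, pandas 2.3.3, SciPy 1.17.1, Biopython 1.88 and Matplotlib 3.10.9 were used. The recovery was tested on simulated data whose scores were made with the same formula. That test checks the calculation and cannot check the formula.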

Additional observations from a re-analysis of the deposited data

How the results depend on the processing

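No paired analysis was possible because each treatment has 1 pooled value per gene, and leaving out a replicate could not be run for the same reason. A limit of 1.5-fold, which can only remove calls, left 2 Aux/IAA genes lower and 0 higher, and 0 ARF genes lower and 0 higher. Without that limit, the counts of lower Aux/IAA genes ranged from 8 without overlapping members to 16 after removal of a trend in GC content and length, which was chosen after seeing the data. Leaving out members can likewise only remove calls, so the 8 is a count over fewer genes. The share of all genes called lower after removal of the trend was not measured, so the 16 has no background beside it. The median ARF ratio went from -0.04 to -0.09 with the all-gene median placed at 0, and ARF1 turned from 0.02 to -0.04. Under that setting 38 of the 44 genes kept their call or stayed uncalled, under the GC and length correction 36, and under a posterior limit of 0.01 43. Genes that stayed uncalled could change sign, as IAA14 did from 0.05 to -0.01 with the all-gene median placed at 0. The GC and length correction, which also centres the ratios, took the calls of IAA12 and ARF19 and gave lower calls to IAA1, IAA3, IAA20, IAA30, ARF7 and ARF11. Placing the all-gene median at 0 by itself also took the call of IAA12 and gave lower calls to IAA20, ARF7 and ARF11. Those changes are therefore not particular to GC content and length. Depth limits the 6 Aux/IAA genes with under 200 reads, of which 1, IAA6, was called.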
